A study of Bos taurus with 2 samples.

Results

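The genes described here encode giant and cross-linking proteins of the sarcomere, most of them at the Z-disc: titin (TTN), nebulin (NEB), alpha-actinin 2 (ACTN2), LIM domain binding 3 (LDB3), myozenin 2 (MYOZ2), cysteine and glycine rich protein 3 (CSRP3), telethonin (TCAP), filamin C (FLNC) and myomesin 1 (MYOM1). They were chosen by name, and 8 of the 9 were matched by symbol among the 21867 genes counted. TTN is not analysed here. Single-cell RNA was sequenced in 2 libraries, called library 1 and library 2, prepared with the 10x Genomics 3ʹ kit from cultured satellite cells of 1 male Holstein calf aged 2 weeks. Satellite cells are the stem cells of skeletal muscle. These were taken from the longissimus muscle and kept for 1 week in growth medium with 10% fetal bovine serum, and neither library was treated. The authors divided the cells into 15 clusters, so the comparisons are between clusters of cells that shared 1 culture.

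The sarcomere is the contractile unit of striated muscle, in which thin filaments of actin slide past thick filaments of myosin. The Z-disc is the border where thin filaments of neighbouring sarcomeres are cross-linked by alpha-actinin, and the M-band in the middle of the sarcomere holds the thick filaments together. Titin reaches from the Z-disc to the M-band, nebulin lies along the thin filament, and the smaller Z-disc proteins tie these filaments to each other and to signalling proteins. Sarcomeres are built when myoblasts leave the cell cycle and differentiate into myocytes.

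The counts covered 9939 cells and 145631299 unique molecular identifiers (UMIs, each standing for 1 captured RNA molecule) in library 1, and 9157 cells and 137818568 UMIs in library 2. A level below is the number of UMIs of a gene per 10000 UMIs of a cluster, given as library 1 and then library 2. Both libraries were made from 1 pool of cells of 1 calf. Their spread is therefore that of library preparation and sequencing, and nothing is known here of variation between animals. The median depth was 19113 UMIs per cell in cluster 12 and 16482 in cluster 3, but 1389 in cluster 7 and 647 in cluster 15. MYOG, the transcription factor that drives myoblast differentiation, had levels of 18.1 and 19.2 in cluster 12, 6.61 and 6.76 in cluster 3, and 0.804 and 0.95 in cluster 1. PDGFRA, a receptor that marks fibro-adipogenic progenitors, had levels of 1.63 and 1.53 in cluster 9, which was taken as the population that should lack sarcomere proteins. Cluster 7 also had PDGFRA levels of 1.23 and 1.74, and it held cells with the myoblast marker MYOD1 as well. PAX7, the defining marker of satellite cells, had 176 UMIs in all cells. Across the cells, 27 barcodes occurred in both libraries.

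NEB, the ruler-like protein of the thin filament, had its highest level in cluster 12, with 14.8 and 13.8. Cluster 7 followed with 10.2 and 8.26, cluster 3 with 5.76 and 5.48, cluster 1 with 2.53 and 2.45 and cluster 2 with 2.33 and 2.37. These 5 clusters stood in the same order in both libraries, each above the next in both. At the other end, the level was 0.311 and 0.307 in cluster 8, 0.283 and 0.238 in cluster 11, and 0.289 and 0.149 in cluster 9. Of the 68064 NEB UMIs, 26% lay in cluster 12, which held 4.38% of all UMIs, and 29.3% in cluster 3, which held 12.5%.

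FLNC, an actin cross-linker found at the Z-disc and at the cell membrane, did not share this order. Its highest level was in cluster 7, with 19.5 and 18, followed by cluster 12 with 10.3 and 11. The level was 7.55 and 8.02 in cluster 3, 5.31 and 5.6 in cluster 1, and 2.21 and 2.25 in cluster 9, the lowest of all clusters. FLNC was therefore spread over all 15 clusters, and cluster 12 held 9.57% of its 137784 UMIs.

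ACTN2, the muscle isoform that cross-links thin filaments at the Z-disc, was found mainly in cluster 12. Its level there was 0.293 and 0.312, against 0.134 and 0.082 in cluster 7, 0.019 and 0.014 in cluster 3, and 0.00291 and 0.00602 in cluster 1. Of its 542 UMIs, 69.2% came from cluster 12. LDB3, a PDZ and LIM domain protein that binds alpha-actinin, was the least concentrated of the low-count genes, with 14.7% of its 1234 UMIs in cluster 12. Its level was 0.19 and 0.148 in cluster 7 and 0.143 and 0.149 in cluster 12, and these 2 clusters overlapped. In the clusters other than 7, 12, 9 and 15 its level stayed between 0.0268 and 0.0948, with 0.0652 and 0.0536 in cluster 1 and 0.0349 and 0.0347 in cluster 3. Cluster 9 was lower, with 0.00704 and 0.00492.

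MYOZ2, also called calsarcin 1, binds both alpha-actinin and the phosphatase calcineurin. Its level was 1.27 and 1.29 in cluster 12, above all other clusters in both libraries. The shallow clusters 14 and 15 followed, with 0.269 and 0.201 in cluster 14 and 0.105 and 0.322, from 5 UMIs, in cluster 15. Cluster 3 had 0.101 and 0.105, cluster 7 had 0.0781 and 0.0492, and cluster 1 had 0.0233 and 0.0175. CSRP3, the muscle LIM protein, was the most concentrated, with 79.9% of its 334 UMIs in cluster 12. Its level was 0.213 and 0.217 in cluster 12, 0.0475 and 0.0268 in cluster 14 (5 UMIs in all) and 0.00845 and 0.0103 in cluster 3. It had no UMI in clusters 5 and 13.

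MYOM1, which links thick filaments at the M-band, had levels of 0.613 and 0.674 in cluster 12, 0.212 and 0.205 in cluster 7, 0.0423 and 0.0572 in cluster 3, and 0.0105 and 0.0114 in cluster 1. Cluster 12 held 63.1% of its 1267 UMIs. TCAP, the cap that joins the ends of titin molecules in the Z-disc, had 1 UMI, in 1 cell of cluster 2 in library 2. In cluster 12, 0 of 627 cells had a TCAP UMI, which allows a share of cells with a UMI of up to 0.478%, and the level that 3 counts would give there was 0.00242. Intervals and limits such as these cover counting error only. TCAP was thus not detectable at this depth in cluster 12, the cluster in which NEB, ACTN2, MYOZ2, CSRP3 and MYOM1 were highest.

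**Figure D1:**
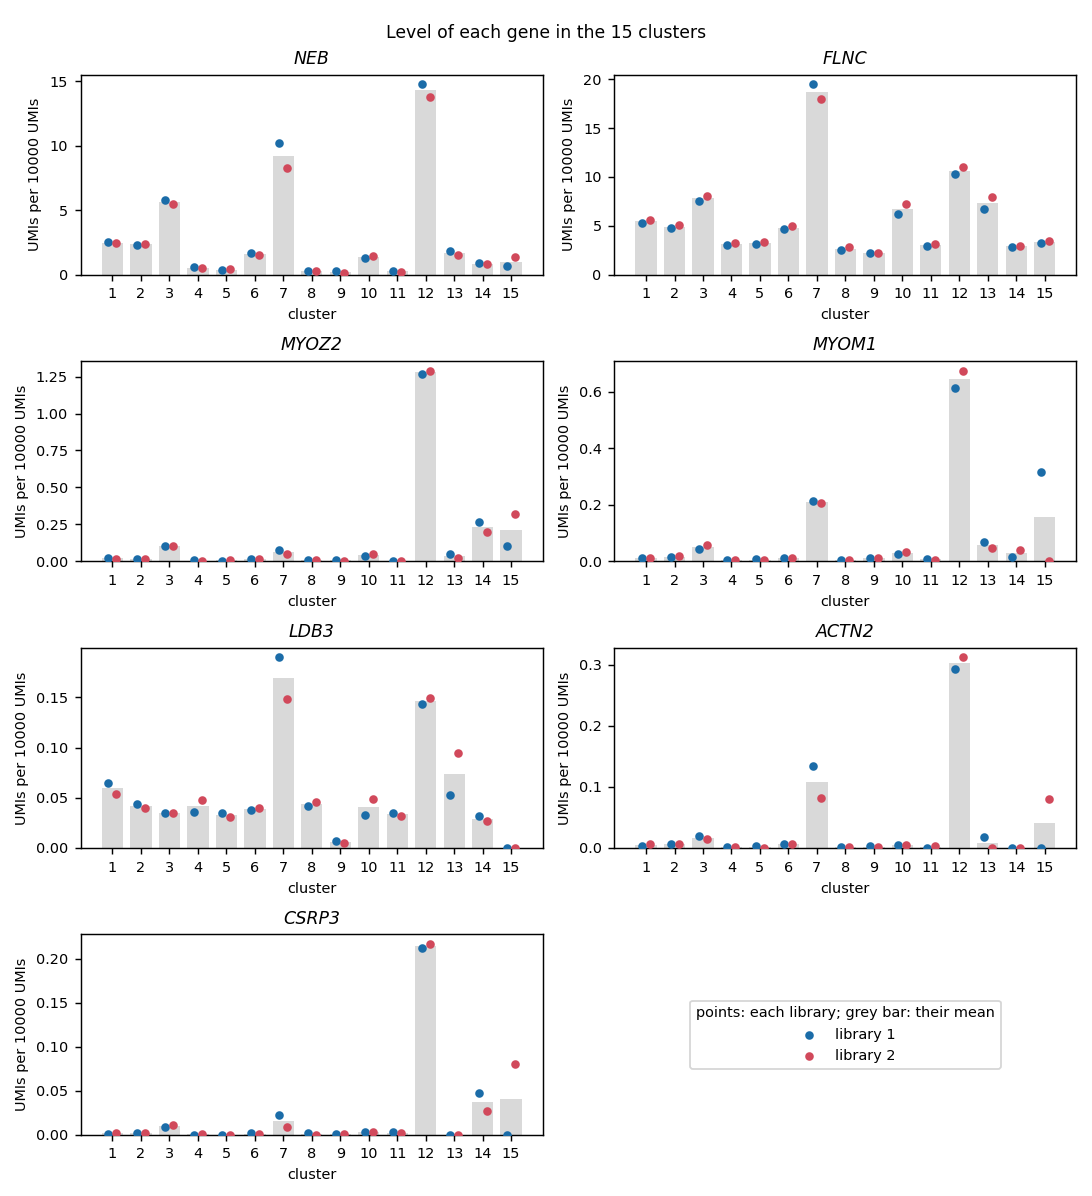
Level of 7 genes in the 15 clusters, in UMIs per 10000 UMIs, with a separate linear vertical axis for each gene. Points are the 2 libraries and grey bars their mean; cluster 12 leads for NEB, MYOZ2, MYOM1, ACTN2 and CSRP3, cluster 7 leads for FLNC, and clusters 7 and 12 overlap for LDB3.

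To ask which of these genes separate the MYOG clusters from the cells before them, UMIs were summed per library over each cluster, and the sums, 2 against 2, were tested by the quasi-likelihood method of edgeR, with p-values adjusted after Benjamini and Hochberg over all genes tested. The clusters were made from these same counts, so a difference between clusters is not independent evidence of the clusters, and the p-values measure the spread between 2 libraries of the same cells. TCAP did not pass the filter on low counts. Relative to cluster 3, cluster 12 had higher levels of the 7 other genes, and 18.2% of the 10811 genes tested were called higher and 15.6% lower. The log2 fold change was 4.61 for CSRP3, 4.27 for ACTN2, 3.80 for MYOM1, 3.73 for MYOZ2, 2.16 for LDB3, 1.44 for NEB and 0.55 for FLNC. The standard errors were between 0.0513 and 0.19, and the edgeR adjusted p-values lay between 1.38e-07 for MYOZ2 and 0.000155 for FLNC. Both libraries on their own gave the same direction for each gene.

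Between cluster 3 and cluster 1, 6 of the 7 genes were higher in cluster 3, against 21.1% of the 11362 genes tested. The log2 fold change was 2.64 for CSRP3, 2.37 for MYOZ2, 2.21 for MYOM1, 1.92 for ACTN2, 1.21 for NEB and 0.55 for FLNC. CSRP3 had 5 UMIs in cluster 1 and ACTN2 had 15, and their standard errors were 0.494 and 0.42. LDB3 went the other way, with a log2 fold change of -0.73 ± 0.173 (SE, edgeR adjusted p = 0.0133), and 19.1% of all genes tested were called lower. DESeq2 gave LDB3 a log2 fold change of -0.74 and an adjusted p of 0.0905, so this call was lost with that tool. By edgeR, LDB3 was thus lower in cluster 3 than in cluster 1 and higher again in cluster 12, whereas the other 6 genes were higher at both steps.

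**Figure D2:**
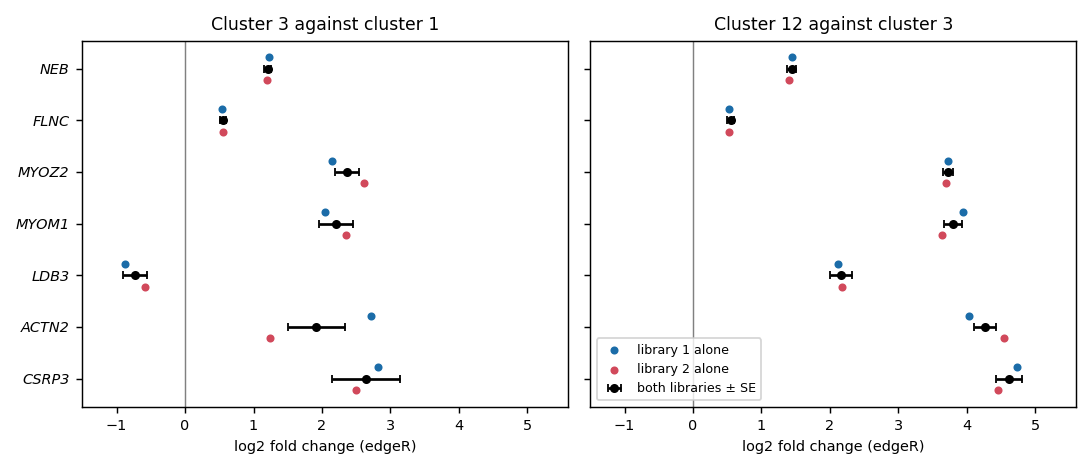
Log2 fold change of 7 genes between cluster 3 and cluster 1 (left) and between cluster 12 and cluster 3 (right), from edgeR. Black points with bars are both libraries ± SE, and coloured points are each library alone. LDB3 lies at -0.73 on the left and at 2.16 on the right, and all other values are above 0.

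Against all other cells, the 7 genes were all higher in cluster 12, with log2 fold changes of 6.61 for CSRP3, 5.83 for MYOZ2, 5.79 for ACTN2, 5.40 for MYOM1, 3.13 for NEB, 2.09 for LDB3 and 1.39 for FLNC, and 24.8% of the 13224 genes tested were called higher and 29.5% lower. In cluster 3, the same comparison called 3 of the 7 genes higher and none lower, against 24.5% higher and 25.4% lower among the 13082 genes tested. These were NEB with a log2 fold change of 1.67, FLNC with 0.94 and MYOZ2 with 0.55. ACTN2 had a value of -0.09, LDB3 -0.23, CSRP3 -0.24 and MYOM1 0.30, none of which passed the test. With the library as a block, MYOM1 was also called, with an adjusted p of 0.0383. The cells compared with cluster 3 include cluster 12, and with every other cluster weighted equally MYOZ2 had -0.26 (edgeR adjusted p = 0.0845), while ACTN2 with -0.89, CSRP3 with -1.10 and MYOM1 with -0.61 were called lower. Without the cells with the highest doublet scores, the CSRP3 value in cluster 3 fell to -1.09 and was called lower (edgeR adjusted p = 0.0151).

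In cluster 9, the PDGFRA population, the 7 genes were lower than in all other cells, and 27.7% of the 13205 genes tested were called lower and 25.3% higher. The log2 fold change was -4.09 for MYOZ2 and CSRP3, -3.60 for NEB, -3.23 for ACTN2, -3.00 for LDB3, -2.27 for MYOM1 and -1.24 for FLNC. ACTN2 had 6 UMIs and CSRP3 had 2 in this cluster. MYOM1 had 27. These values do not hold for cluster 7 as a whole, which also had PDGFRA. Its levels of all 7 genes were above those of cluster 9 in both libraries, CSRP3 with 3 UMIs. Cluster 7 also held cells with MYOD1. In its cells with a PDGFRA UMI and no MYOD1 UMI, NEB had levels of 0.798 and 1.82 and FLNC 9.09 and 8.09. In those cells MYOZ2 had 1 and 0 UMIs, ACTN2 0 and 1, LDB3 1 and 1, MYOM1 0 and 4, and CSRP3 0 and 0.

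Cluster 15 had 95317 and 124042 UMIs in all, and few of them were from these genes. NEB had 6 and 17 UMIs there and FLNC had 31 and 42, which gave levels of 0.629 and 1.37 for NEB and 3.25 and 3.39 for FLNC. MYOZ2 had 1 and 4 UMIs, MYOM1 had 3 and 0, and ACTN2 and CSRP3 each had 1 in library 2. LDB3 had none in 317 cells, where 3 cells with a UMI would make up 0.946% of these shallow cells. The LDB3 level that 3 counts would give there was 0.137, above its level in every cluster except 7 and 12, so a level like that of the other clusters was not detectable. By edgeR, 0 of the 7 genes differed from all other cells, against 0.039% of genes called higher and 0.234% called lower. Of the 7, 2 genes, NEB and FLNC, had an unadjusted p under 0.05, against 1182 of the 12827 genes tested. NEB had a log2 fold change of -1.42 and FLNC of -0.77. DESeq2 called both lower, as did edgeR with the library as a block, against 128 and 215 of the 12827 genes tested. On simulated counts of this comparison, 34% of the genes changed 3-fold were recovered. Against cluster 14, which was also shallow, 3 genes could be tested and none was called, with 0.416% of genes called higher and 2.34% lower. NEB had 0.10 ± 0.35, FLNC 0.02 ± 0.171 and MYOZ2 -0.21 ± 0.616 (log2 fold change and SE). Of these 3 genes, 0 had an unadjusted p under 0.05, against 594 of the 4572 genes tested.

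To place the genes along differentiation, the cells of clusters 8, 1, 3 and 12, which the authors ordered in this way, were put into 20 bins of about equal cell number by their share of UMIs in 25 genes of the thick and thin filaments, none of which is described above. In that list ACTC1, TPM1, TPM2 and MYLPF had the most UMIs. The median share rose from 21.9 UMIs per 10000 in bin 1 to 432 in bin 20, and cluster 12 made up 0.312% of the cells of bin 15, 25.1% of bin 18 and 96.6% of bin 20. Cluster 8 made up 35% of bin 1, 45% of bin 5 and 26.6% of bin 10. The first 10 bins thus did not follow the authors' order of cluster 8 before cluster 1. TPM1 had levels of 19.4 and 20.2 in cluster 9 too, so low values of the share do not measure differentiation alone. All 7 genes had their highest level in bin 20. FLNC rose gradually, from 3.36 and 4.02 in bin 1 to 5.14 and 5.11 in bin 10 and 7.23 and 7.98 in bin 15. It reached 10.4 and 11.3 in bin 20, and it passed 50% of this final level in bin 11. NEB had levels of 0.821 and 1.19 in bin 1, 2.3 and 1.83 in bin 10 and 5.34 and 5.43 in bin 15. It reached 11.6 and 10.4 in bin 19, where it passed 50% of its final level, and 18.5 and 17.6 in bin 20. FLNC started nearer its final level than NEB, so this mark does not tell which of them began to rise first.

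ACTN2, MYOZ2, CSRP3 and MYOM1 lay mostly at the end of this order. MYOZ2 had levels of 0.0203 and 0.0143 in bin 10, 0.0727 and 0.0895 in bin 15, 0.581 and 0.543 in bin 19 and 1.82 and 1.99 in bin 20. The last bin alone held 57.7% of the MYOZ2 UMIs, 60.7% of the MYOM1 UMIs, 67% of the ACTN2 UMIs and 72.6% of the CSRP3 UMIs of these 4 clusters, whereas the first 10 bins together held between 1.3% and 4.31% of them. LDB3 had another shape. Its level was 0.0817 and 0.0601 in bin 1, 0.045 and 0.0233 in bin 15 and 0.2 and 0.244 in bin 20, and the first 10 bins held 35.6% of its UMIs, more than the 12.5% of NEB and the 28.6% of FLNC. The median depth of the cells rose along the same order, from 11287.5 UMIs in bin 1 to 19444 in bin 20, and its part in these values was not tested.

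**Figure D3:**
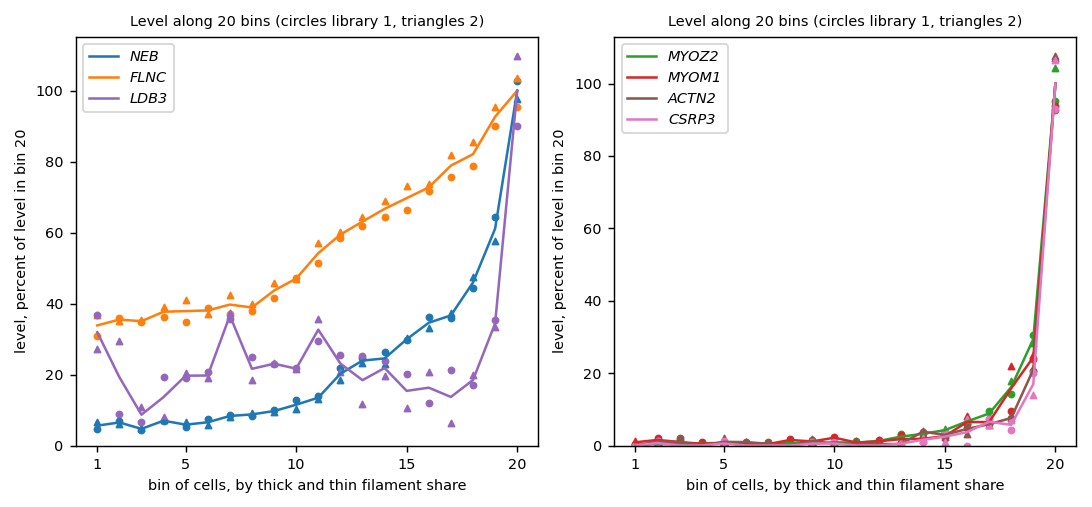
Level of each gene in 20 bins of cells of clusters 8, 1, 3 and 12, as percent of its mean level in bin 20, with bins ordered by the share of UMIs in thick and thin filament genes. Lines are the mean of both libraries, circles library 1 and triangles library 2. FLNC passes 50% in bin 11 and NEB in bin 19, LDB3 is uneven before bin 19, and the 4 genes on the right reach this mark in bin 20.

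In single cells, NEB was found in nearly every cell of cluster 12, with a UMI in 99% of the cells of both libraries. FLNC was found in 99.7% of them in both libraries, MYOZ2 in 68.3% and 67.6%, MYOM1 in 49.5% and 55.8%, ACTN2 in 32.4% and 33%, LDB3 in 18.1% and 18.6% and CSRP3 in 17.8% and 16.7%. In cluster 3, the share was 93.9% and 92.6% for NEB, 12.5% and 13.5% for MYOZ2, 6.19% and 7.51% for MYOM1, 5.11% and 5.33% for LDB3, 2.87% and 2.39% for ACTN2 and 1.17% and 1.41% for CSRP3. Cluster 9, with a median depth of 23011 UMIs per cell, had a NEB UMI in 14.8% and 16% of its cells and a FLNC UMI in 94.7% and 94.1%. For the other 5 genes the share in cluster 9 was between 0.171% and 2.43%.

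Because depth differed between clusters, each cell was thinned to 5000 UMIs, leaving out shallower cells, of which cluster 12 had 14. NEB was then found in 95.4% and 96.1% of the cells of cluster 12, 81% and 76.9% in cluster 3, 52.3% and 50.1% in cluster 1 and 6.31% and 4.66% in cluster 9. MYOZ2 was found in 40.5% and 34.5% of the cells of cluster 12, 4.31% and 4.14% in cluster 3, 1.17% and 0.254% in cluster 1 and 0.683% and 0% in cluster 9. MYOM1 was found in 0.391% and 0.93% in cluster 1 and 0.171% and 0.81% in cluster 9. For both genes the share was higher in cluster 1 than in cluster 9 within each library, but it came from at most 15 cells, and the exact 95% binomial intervals of the clusters overlapped in each library. Before thinning, the MYOZ2 level of cluster 1 was 3.67 and 4.25 times that of cluster 9, and the MYOM1 level 0.992 and 1.16 times. LDB3 had 2.9% and 3.04% in cluster 1 and 0.171% and 0% in cluster 9. At 500 UMIs per cell, which the cells of cluster 7 also reached, NEB was found in 24% and 18.4% of the cells of cluster 7, 23.9% and 21.5% of cluster 3, 50.5% and 47.8% of cluster 12, and 0.683% and 0% of cluster 9.

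Among the cells of cluster 12, the genes varied in different degrees. NEB ranged from 0 to 180 UMIs per cell with a median of 24 in library 1, and from 0 to 97 with a median of 23 in library 2. Its variance was 16.2 and 12.8 times its mean. FLNC was more even, with medians of 19 and 21 UMIs and a variance of 3.89 and 3.23 times the mean. MYOZ2 had a median of 1 UMI in both libraries and reached 15 and 22.

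Many cells of cluster 12 had UMIs of several of the genes. Of all 19096 cells, 509 had a UMI of 4 or more of the 7 genes, and cluster 12 held 352 of these, cluster 3 held 80, cluster 7 held 14 and the other clusters held 63. Within cluster 12, 56.1% of the cells had 4 or more, and 26 cells had all 7, against 1 cell of cluster 3. In cells of cluster 12 with a MYOZ2 UMI, ACTN2 was found in 40% and 42.2%, against 16% and 13.9% of the cells without one. MYOM1 was found in 53.5% and 63.5% against 41% and 39.6%, LDB3 in 22.3% and 23.2% against 9% and 8.91%, and CSRP3 in 20.9% and 19.4% against 11% and 10.9%. The cells with a MYOZ2 UMI were also deeper, with medians of 20042 and 20092 UMIs against 18029.5 and 18537, and the part of depth was not tested.

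Over the cells of cluster 12, the Pearson correlation of log2 (UMIs per 10000 + 1) was 0.35 in both libraries between NEB and ACTN2, 0.36 and 0.38 between NEB and MYOM1, and 0.30 and 0.40 between ACTN2 and MYOZ2, over 315 and 312 cells. FLNC and MYOZ2 had values of -0.13 and -0.06, the only pair below 0 in both libraries. In cluster 3 the same NEB and ACTN2 value was 0.04 and 0.10. These are descriptions, since the cells share a library and the median count of each low-count gene was 0 or 1.

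**Figure D4:**
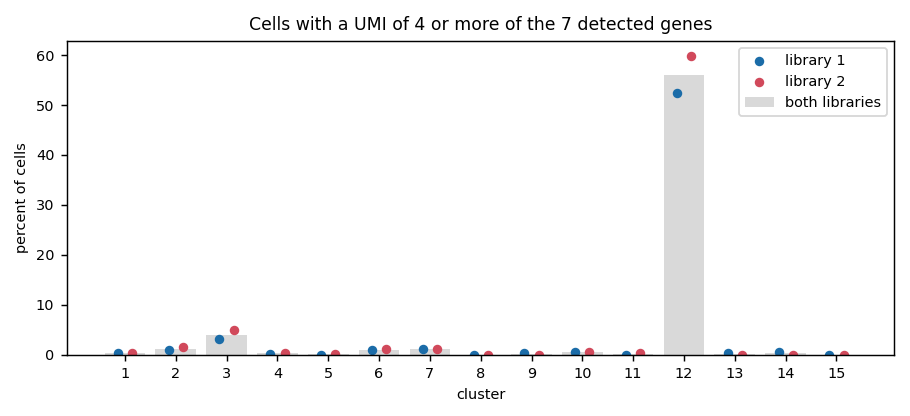
Percent of cells with a UMI of 4 or more of NEB, FLNC, MYOZ2, MYOM1, LDB3, ACTN2 and CSRP3 in each cluster, not corrected for depth. Points are the libraries and grey bars both together. Cluster 12 stands at 56.1% and cluster 3 at 3.93%.

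Cluster 7 was examined further after its high FLNC and NEB levels had been seen, so the following values are a description. Its cells were shallow, and ribosomal protein genes took 8.45% and 8.33% of its UMIs, against 22.7% and 22.5% in cluster 12. It held cells with a MYOD1 UMI and cells with a PDGFRA UMI. In the 156 and 158 cells with a MYOD1 UMI and no PDGFRA UMI, the NEB level was 16.1 and 15.3 and the FLNC level 24.9 and 26.2. In the 72 and 93 cells with a PDGFRA UMI and no MYOD1 UMI, it was 0.798 and 1.82 for NEB and 9.09 and 8.09 for FLNC. The 385 and 399 cells with neither had NEB levels of 9.59 and 7.02. The 11 and 24 cells with both differed between libraries, with NEB levels of 1.3 and 8.52. In cluster 7, NEB was thus higher in cells with MYOD1 alone than in cells with PDGFRA alone. FLNC was above its cluster 9 level in both of these kinds of cells.

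The balance among the low-count genes differed between clusters. Of the summed UMIs of MYOZ2, MYOM1, ACTN2, CSRP3 and LDB3 in both libraries, MYOZ2 made up 49.5% in cluster 12 (exact 95% binomial interval 47.8 to 51.2) and 48.3% in cluster 3 (44.7 to 52). In cluster 7 it made up 11.1% (6.05 to 18.3) and MYOM1 37.6% (28.8 to 47), against 24.9% (23.4 to 26.4) for MYOM1 in cluster 12. Cluster 14 was the opposite, with MYOZ2 at 71.1% (55.7 to 83.6) of 45 UMIs and no ACTN2 UMI. In cluster 1 LDB3 made up 61.5% (56 to 66.8) and in cluster 4 77.3% (70.6 to 83.1), against 5.64% (4.86 to 6.49) in cluster 12. Cluster 3 was near cluster 12 in its MYOZ2 share but not in every gene. It had 364 UMIs of MYOZ2, 123 of LDB3 and 33 of CSRP3, whereas cluster 12 had 1590, 181 and 267. The intervals take pooled UMIs as independent and cover counting error only, although MYOZ2 varied more than that among cells of cluster 12. Within this limit, clusters 1, 4, 7 and 14 did not hold the 5 genes in the ratio of cluster 12. For cluster 14 this rests on 45 UMIs.

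**Figure D5:**
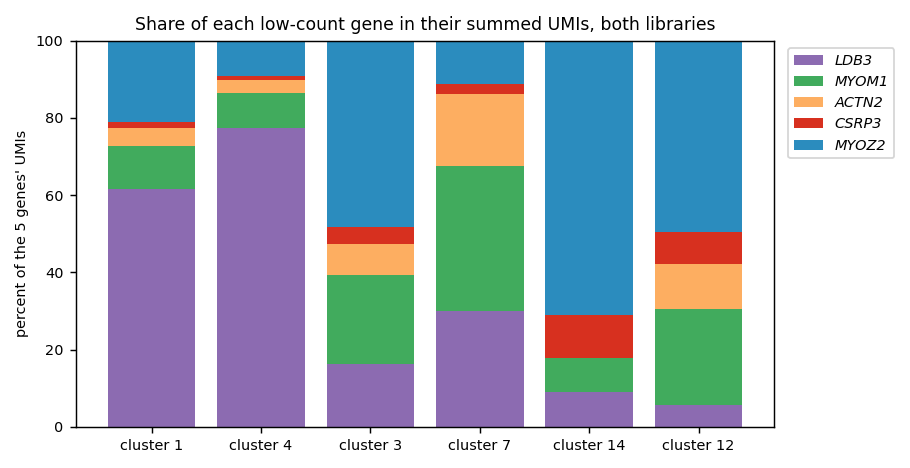
Share of LDB3, MYOM1, ACTN2, CSRP3 and MYOZ2 in their summed UMIs in 6 clusters, both libraries together, as stacked bars from 0 to 100%. LDB3 takes 61.5% in cluster 1 and 5.64% in cluster 12, and MYOZ2 takes 11.1% in cluster 7 and 71.1% in cluster 14.

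Other proteins of the Z-disc, M-band and sarcomere assembly were compared between the same clusters. Among 36 such genes tested, 31 rose from cluster 3 to cluster 12, 1 fell and 4 did not pass the test, against 18.2% of all genes called higher and 15.6% called lower. They had a median log2 fold change of 1.82, against a median of -0.02 over all genes. The largest changes among those with at least 100 UMIs were in LMOD2, which helps to set thin filament length, with 6.77 ± 0.37, and in TRIM54, a ubiquitin ligase of the sarcomere, with 6.40 ± 0.218 (SE). The size of these changes rests on few UMIs in cluster 3, where LMOD2 had levels of 0.000528 and 0.00122 and TRIM54 of 0.00528 and 0.00244. FHL2, a LIM protein found in many tissues, fell by 0.38 on the log2 scale, with levels of 1.18 and 1.22 in cluster 12 and 1.59 and 1.75 in cluster 3. MYOZ1, a close relative of MYOZ2, did not pass the test, with levels of 0.0455 and 0.0527 in cluster 12 and 0.0465 and 0.0548 in cluster 3. Between clusters 3 and 1, 20 of 31 genes of this list were higher and 3 were lower, with a median of 0.83, against 21.1% and 19.1% of all genes.

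Among 22 thick and thin filament genes tested, 21 rose from cluster 3 to cluster 12 and 1 fell, against 18.2% and 15.6% of all genes, with a median log2 fold change of 3.19. MYH2, a fast myosin heavy chain, had 6.52 ± 0.758, ACTA1, skeletal muscle actin, 5.80 ± 0.118 and MYL2, a myosin light chain, 5.58 ± 0.552. In cluster 3, MYH2 had only 0 and 3 UMIs. MYL2 differed between the libraries, with 0.938 and 0.336 in cluster 12, and MYH2 likewise, with 0.115 and 0.0479, whereas the 7 genes above differed less between libraries in cluster 12. TPM3, a tropomyosin also used outside muscle, fell by 0.72 on the log2 scale.

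Relatives of these proteins that most cells use behaved otherwise. Of 9 tested, 6 fell from cluster 3 to cluster 12 and 1 rose, against 15.6% of all genes called lower and 18.2% called higher, and the median log2 fold change was -0.46. Among those that fell were CSRP2 by 0.77, LASP1 by 0.62, ACTN1 by 0.55, FLNA by 0.46 and PDLIM1 by 0.42. PALLD, a scaffold of actin bundles, was higher, with 0.24, while ACTN4 with 0.14 and CSRP1 with -0.01 did not pass the test. NEBL, the relative of nebulin, had 8 UMIs in all cells. In cluster 12, ACTN2 was thus higher and its relative ACTN1 lower than in cluster 3, and FLNC was higher and FLNA lower. This did not hold for ACTN4, another alpha-actinin, with levels of 2.19 and 2.24 in cluster 12 and 2.05 and 2.25 in cluster 3. For FLNA the level was 4.23 and 4.39 in cluster 12 and 6.15 and 6.58 in cluster 3, and for ACTN1 0.769 and 0.735 against 1.11 and 1.25. Without TMM scaling the median of all genes shifted from -0.02 to -0.12, and 1963 genes higher and 1687 lower became 1552 and 2527, while 6 of the 9 relatives were again called lower and 1 higher.

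Finally, the genes whose levels over the 15 clusters were most like those of each gene were sought among 10062 genes with at least 500 UMIs, by the Pearson correlation of log2 (level + 0.1). For NEB these were CHRNG with 0.987, LMO7 with 0.986 and DIPK2A with 0.977, and CHRNG encodes the fetal subunit of the muscle acetylcholine receptor. ERBB3, a neuregulin receptor, and LSMEM1 were among the 3 nearest of both ACTN2 and MYOM1, with 0.956 and 0.968 for ACTN2 and 0.988 and 0.984 for MYOM1. With a pseudocount of 1 they were no longer shared, as ERBB3 stayed among the 3 nearest of MYOM1 alone and LSMEM1 of neither, and MYMK and GRASP were near both instead. TNNI1, slow skeletal troponin I, and PSTPIP1 were among the 3 nearest of both MYOZ2 and CSRP3, with 0.977 and 0.979 for MYOZ2 and 0.992 and 0.970 for CSRP3, and with a pseudocount of 1 as well. The others were GRASP with 0.955 for ACTN2, MYMK, the fusion protein myomaker, with 0.969 for MYOM1, SMIM5 with 0.982 for MYOZ2 and ABLIM3 with 0.965 for CSRP3. FLNC and LDB3 shared none of these neighbours. USP12 with 0.981, CNOT6L with 0.974 and DDR1 with 0.973 were nearest to FLNC, and SLC6A6 with 0.929, the unnamed gene ENSBTAG00000046838 with 0.929 and CASP9 with 0.927 were nearest to LDB3. The mean CSRP3 level was above the added 0.1 in cluster 12 alone, and that of ACTN2 in clusters 12 and 7 alone. Few clusters thus set their correlations. TNNI1 differed between the libraries in cluster 12, with levels of 0.153 and 0.433. The clusters share the same 2 libraries and differ in depth, so these values describe likeness over 15 clusters only.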

How the data were processed

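Per the labels and methods, the authors aligned reads to ARS-UCD1.2, counted UMIs and aggregated both libraries in Cell Ranger 3.0.2. The deposited counts are whole numbers of UMIs per gene and cell, and the deposited cluster averages are scores, mean UMIs per cell scaled to a common total. Their log2 fold changes and adjusted p-values are the authors' own comparisons and were not used. Each cell was given its cluster by solving the deposited averages, which fixed all 19096 cells and matched all 252240 pairs of gene and cluster. Counts were summed per library and cluster and compared with edgeR 4.0.16 (TMM, filterByExpr, adjusted p under 0.05) in R 4.3.3. DESeq2 1.42.0, no TMM, no filter, the library as a block, single libraries, other assignments of cells (a profile model, Leiden clustering in scanpy 1.11.5 without the listed genes), leaving out cells under 2000 UMIs or with high doublet scores, and equal weights for the other clusters were alternatives. No doublets were removed for the values in the text. On simulated counts with 200 genes changed 3-fold, between 34% and 99.5% were recovered over the 7 comparisons. Sums of both clusters in a comparison stem from shared libraries and are paired by library, and the correlations of library ratios were between 0.0727 and 0.668. Thinning drew UMIs without replacement. The genes and lists were chosen with earlier results of these data known. The text names each of the genes chosen by name, in each list the 3 largest and the smallest log2 fold change between clusters 12 and 3 among genes with at least 100 UMIs, all relatives used outside muscle, and the 3 genes nearest in pattern. Some genes that this rule names are not reported here. MYOZ1 was named after its values were seen. The cluster 7 split was also chosen after the data had been seen.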

Additional observations from a re-analysis of the deposited data

How the results depend on the processing

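All 7 genes stayed higher in cluster 12 against cluster 3 and against all other cells, and lower in cluster 9, under every alternative that gave a test. In cluster 3 against all other cells, the test reported called 0 of the 7 genes lower. It was 1 without TMM scaling, 1 without the cells of highest doublet score, 1 with Leiden clustering and 3 with equal weights. Of all genes tested, 3318 of 13082 were lower by the test reported and 4474 of 13082 without TMM scaling. The number was 3319 of 12967 without those cells, 3515 of 13095 with Leiden clustering and 2869 of 13102 with equal weights. The MYOZ2 value there was -0.26 and the MYOM1 value -0.61 with equal weights, and MYOM1 was -0.10 with Leiden clustering. In cluster 15 against all other cells, 2 genes were called lower by DESeq2, by edgeR with the library as a block, and with equal weights, against 0. Of all genes tested, 128 of 12827, 215 of 12827 and 118 of 12845 were lower in these, against 30 of 12827. In cluster 3 against cluster 1, DESeq2 called 0 genes lower, against 1. Of all 11362 genes tested there, 1252 were lower by DESeq2, against 2168. In cluster 15 against cluster 14, the NEB value was -0.05 without the filter on low counts, and the FLNC value was -0.13 without it and -0.08 with cells assigned by profile. The cause of these changes was not tested. With the library as a replicate block, cluster 3 against all other cells had 4 genes higher, against 3. Of all 13082 genes tested, 4099 were higher with the block, against 3205. Cluster 3 had 2 genes higher with Leiden clustering and 2 with equal weights, as MYOZ2 was not called higher in either. In these, 2955 of 13095 and 2752 of 13102 genes tested were higher. No call among the genes tested changed beside those named. In cluster 3 against cluster 1, CSRP3 was not tested without the cells of highest doublet score or with Leiden clustering. Each of these settings left 6 genes tested. With 1 library alone there is no test between sums. The number of genes highest in cluster 12 was 5 with both libraries, and 5 or 6 with 1 library alone, LDB3 being highest in cluster 12 in library 2. With a pseudocount of 1, 14 of the 21 nearest genes were kept, and the sharing of ERBB3 and LSMEM1 by ACTN2 and MYOM1 was lost. The automatic Scrublet threshold called 0 and 1 cells, so the highest 8% of scores in each library, 1528 cells, were left out instead, a choice made after this was seen. Of 105 levels, 72 moved by less than 1 SD with cells assigned by profile and 79 without these doublets. Clusters 14 and 15 held few UMIs of these genes, which limits their comparisons.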
